A study of Homo sapiens with 15 samples.

Results

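The genes of cholesterol synthesis and sterol homeostasis were followed through 15 RNA-seq libraries of NCI-H1975. This is an established line from a human non-small cell lung cancer and carries a mutated EGFR. The set held 31 genes of 61248 loci in the deposited table. Its members were picked by their known role in the pathway: 8 enzymes of the mevalonate arm, 11 enzymes that turn its product into cholesterol, 4 genes of SREBP control, and 8 genes of sterol transport, esterification and efflux. All but ABCG1 passed the filter on low values, so 30 of 14999 tested loci were members.

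The libraries formed 5 groups of 3, all from NCI-H1975. These were control (given no further description in the labels), almonertinib (a kinase inhibitor of mutated EGFR), EGF (the ligand of the receptor), siEGFR (cells given an siRNA that targets EGFR) and siNC (cells given the control siRNA). No dose, time or culture condition was labelled, and the labels do not say whether replicates were separate cultures, so p-values measure the spread between libraries, and that spread may be technical only.

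Cholesterol is built from acetyl-CoA through mevalonate, farnesyl diphosphate, squalene and lanosterol. When sterol in the endoplasmic reticulum is low, the escort protein SCAP carries the SREBP transcription factors to the Golgi, where proteases release them to induce the genes of synthesis. When sterol is high, INSIG proteins hold SCAP back, and oxysterols activate the liver X receptors (LXR), which induce efflux pumps and the ubiquitin ligase MYLIP. SREBPs bind sterol regulatory elements and usually act with NF-Y, which binds CCAAT boxes, and with SP1, which binds GC boxes.

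Promoter windows of RefSeq (build GRCh38.p14, 250 bases before to 50 after the gene's start) were matched by symbol for 27 members, and ACAT2, FDFT1, SQLE and ABCG1 had no window used here. Both strands were searched for CCAAT, for GGGCGG and for the sterol regulatory element TCACNCCAC. No match of 1 motif overlapped a match of another motif. CCAAT was in the windows of 18 members (66.7%), against 35.7% of 27305 promoters of the same length. GGGCGG was in 25 members (92.6%), against 44.6%. The element TCACNCCAC was in SREBF2 alone, with its first base 133 before the start, against 1.15% of all promoters. Of the 20 members with a window that were higher with EGF (below), 15 had a CCAAT box, and of the 7 others 3 had one. GGGCGG was in 18 of the 20 and in all of the 7 others. The promoters compared with were not matched to the members for expression or GC content, which was 58.3% to 78.3% in the member windows. The part of this in the shares was not tested. A match describes the letters in the window only.

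The 250 bases before the start are printed for 6 members, 5′ to 3′ on the strand of the gene, with CCAAT boxes of either strand and the sterol regulatory element in capitals. HMGCS1 (chr5:43313413-43313662, minus strand) and MSMO1 (chr4:165327419-165327668, plus strand) are shown because they had the 2 largest increases with EGF among members with a window, and MSMO1 has 4 CCAAT boxes. INSIG1 (chr7:155297628-155297877, plus strand) and SREBF2 (chr22:41832855-41833104, plus strand) stand for the control loop. LSS (chr21:46228775-46229024, minus strand) and TM7SF2 (chr11:65111622-65111871, plus strand) are shown because they moved apart from the other enzymes although each has a CCAAT box.
HMGCS1: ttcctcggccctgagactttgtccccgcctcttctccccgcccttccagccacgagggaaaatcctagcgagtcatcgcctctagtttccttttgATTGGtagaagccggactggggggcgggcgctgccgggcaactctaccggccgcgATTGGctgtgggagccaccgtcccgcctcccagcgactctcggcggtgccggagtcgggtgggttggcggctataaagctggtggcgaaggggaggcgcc
MSMO1: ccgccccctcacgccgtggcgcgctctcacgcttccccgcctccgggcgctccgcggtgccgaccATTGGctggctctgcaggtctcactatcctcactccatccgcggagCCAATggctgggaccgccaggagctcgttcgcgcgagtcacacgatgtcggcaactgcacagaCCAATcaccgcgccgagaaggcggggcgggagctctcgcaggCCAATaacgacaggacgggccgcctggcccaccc
INSIG1: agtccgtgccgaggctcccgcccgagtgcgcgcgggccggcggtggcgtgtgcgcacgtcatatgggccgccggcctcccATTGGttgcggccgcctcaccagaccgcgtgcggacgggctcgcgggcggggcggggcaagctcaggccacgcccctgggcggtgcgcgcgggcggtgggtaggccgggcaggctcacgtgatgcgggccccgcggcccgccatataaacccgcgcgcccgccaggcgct
SREBF2: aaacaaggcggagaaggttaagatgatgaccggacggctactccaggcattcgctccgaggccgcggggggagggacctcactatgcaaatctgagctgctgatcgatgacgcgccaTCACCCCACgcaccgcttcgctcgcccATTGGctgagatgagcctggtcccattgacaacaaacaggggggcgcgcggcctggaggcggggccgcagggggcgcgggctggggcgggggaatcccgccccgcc
LSS: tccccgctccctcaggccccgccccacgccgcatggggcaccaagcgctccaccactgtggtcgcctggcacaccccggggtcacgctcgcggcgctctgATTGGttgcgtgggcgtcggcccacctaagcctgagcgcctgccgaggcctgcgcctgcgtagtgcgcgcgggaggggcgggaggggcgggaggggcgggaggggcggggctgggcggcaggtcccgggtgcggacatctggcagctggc
TM7SF2: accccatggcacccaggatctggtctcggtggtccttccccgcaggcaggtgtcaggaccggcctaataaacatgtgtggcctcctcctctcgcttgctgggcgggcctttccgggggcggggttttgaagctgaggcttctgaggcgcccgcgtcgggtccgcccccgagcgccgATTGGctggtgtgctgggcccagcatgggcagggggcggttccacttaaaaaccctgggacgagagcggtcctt

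Levels are FPKM, fragments per kilobase of gene scaled to library depth, as the authors deposited them. Read totals recovered from the FPKM steps ranged from 18009882 to 34908207 per library, and every tested member had between 104 and 21126 reads in each library. EGFR, the target of the siRNA and the drug, was 28.0, 22.3 and 22.8 FPKM in control, 19.2, 15.4 and 15.5 with almonertinib, 30.2, 22.1 and 23.9 with EGF, 49.4, 49.4 and 49.8 in siNC and 29.9, 28.6 and 28.9 in siEGFR. The knockdown left 58.8% of the siNC level, and since siNC was at 203% of control, all siEGFR libraries lay above all control libraries. Of 6 epithelial markers the keratins KRT8, KRT18 and KRT19 were at 129 FPKM or more in every library, and the sum of all 6 was 923 to 1142 FPKM. The other 3 differed widely between groups. EPCAM had a mean of 6.58 FPKM in control, 35.2 in siNC and 20.0 in siEGFR, KRT7 of 56.4, 303 and 284, and CDH1 of 5.69, 16.3 and 10.3, while KRT7 was at 33.3 with almonertinib and CDH1 at 2.13 with EGF. In siNC 4 of the 6 were called higher than in control and 1 lower. The lung lineage marker NKX2-1 was at 2.62 to 15.7 FPKM, while NAPSA reached at most 1.72. Of 4 leukocyte markers PTPRC and CD3E stayed at or under 0.0620 FPKM, but CD14 was at 2.99 to 40.9. Of 4 fibroblast markers DCN was at 0 in 13 libraries, and PDGFRB was at 1.26 to 11.9. Summed over the fibroblast list, the level was 8.36 to 12.1 FPKM in control and almonertinib and 1.38 to 2.58 FPKM in the other 9 libraries. Over the endothelial list it was 1.57 to 3.50 FPKM in the control, almonertinib and EGF libraries and 0.339 to 0.519 FPKM in the siRNA libraries. The summed leukocyte list ran from 30.7 to 41.7 FPKM in the control, almonertinib and EGF libraries and from 3.96 to 8.01 in the siRNA libraries, and the part of these marker changes in the sterol results was not tested.

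Control 1, almonertinib 3, EGF 2 and control 2 were the libraries most often at the ends of their groups. Control 1 was highest for 15 and lowest for 15 of 31 members. Almonertinib 3 was highest for 19 and lowest for 10, EGF 2 for 14 and 14, and control 2 for 15 and 12. Of the members, 13 were at the highest of the group and 8 at the lowest in both control 1 and almonertinib 3. The longest transcripts of the 13 had a median GC content of 40.4%, and those of the 8 had 58.3%. The median coefficient of variation of the members was 11.4% in control, 10.7% with almonertinib and 9.07% with EGF, but 3.74% in siNC and 3.75% in siEGFR. Counts of members below are therefore also given without control 1 and almonertinib 3, and without the trends with GC content and length. Each library was also left out in turn.

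Changes are differences of log2(FPKM + 1) from limma with their standard error (SE), and a member is called higher or lower, or said to rise or fall, where the Benjamini-Hochberg adjusted p over all 14999 loci was under 0.05. A share of loci called counts both directions unless a direction is named. Shares of all loci at an unadjusted p under 0.05 were not computed. In RNA from whole cultures, fewer expressing cells and less RNA per cell cannot be told apart.

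**Figure D1:**
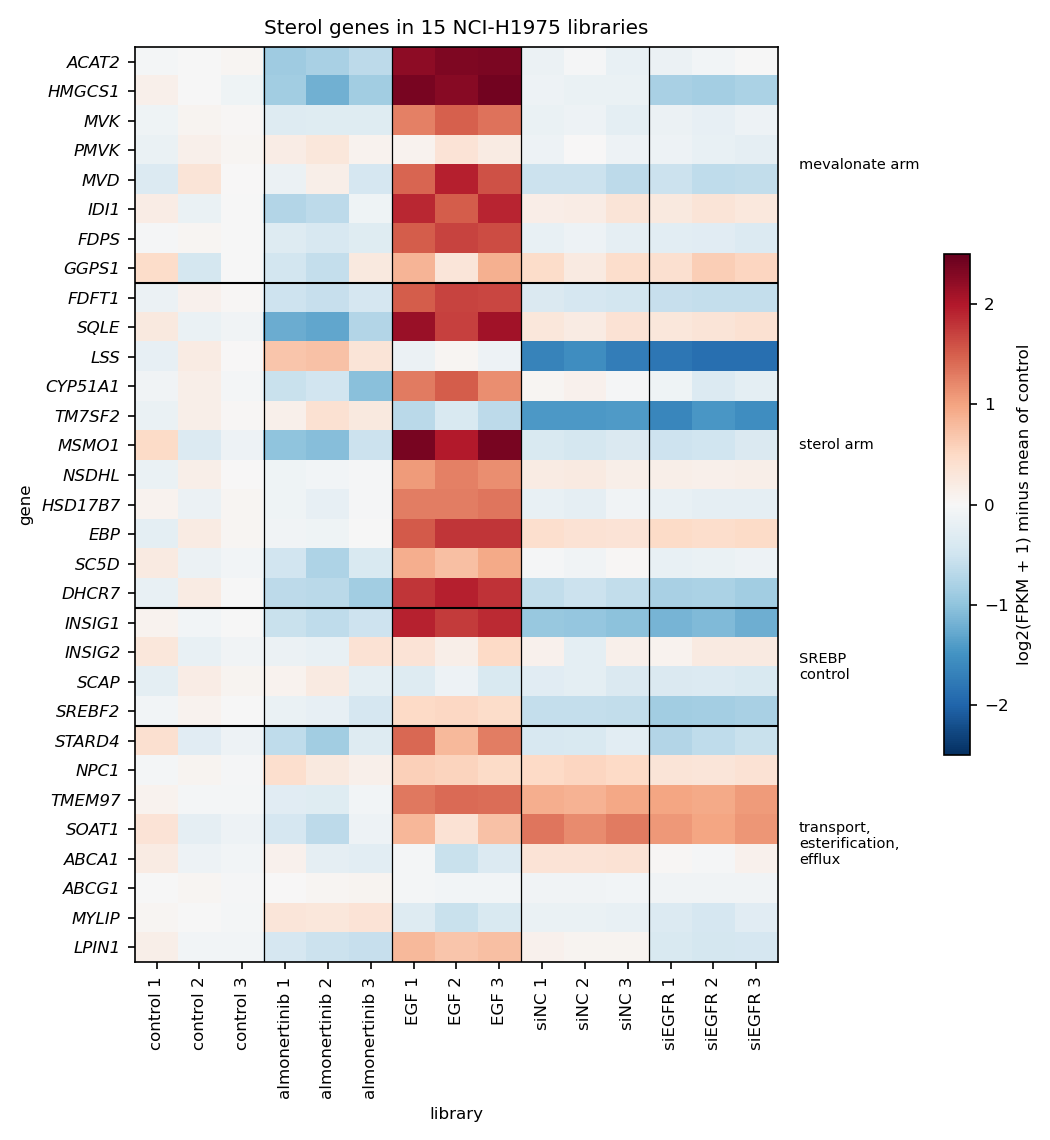
Level of each member (rows, by role) in each of the 15 libraries (columns), as log2(FPKM + 1) minus the mean of the 3 control libraries, red for higher and blue for lower. The EGF libraries are red for most enzymes, and LSS, TM7SF2 and INSIG1 are blue in all 6 siRNA libraries.

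With almonertinib, most genes of both synthesis arms were lower than in control, and LSS stood against them. Of 30 members 16 fell and 3 rose, where 18% of all tested loci fell and 12.1% rose. The median change of the members was -0.29, against -0.06 over all loci. The falls reached from the thiolase ACAT2 at the start of the pathway to the reductase DHCR7 at its end.

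SQLE, the squalene epoxidase and a rate-limiting step, had the largest fall. It was 7.76, 5.60 and 5.98 FPKM in control and 2.14, 2.02 and 3.45 FPKM with almonertinib, a change of -1.09 ± 0.15 (adjusted p = 0.00029). The groups did not overlap, and the mean was 39.4% of control. HMGCS1, the synthase that makes HMG-CoA, went from 18.9, 17.1 and 15.9 FPKM to 8.94, 6.90 and 9.0 FPKM (-0.98 ± 0.09, adjusted p = 7.9e-06). MSMO1, a sterol methyl oxidase, was 19.5, 10.7 and 12.5 FPKM in control and 6.35, 6.09 and 9.24 FPKM with the drug (-0.87 ± 0.19, adjusted p = 0.0048). In both genes every almonertinib library lay under every control library, and for MSMO1 the gap was small, since control 2 and almonertinib 3 were 10.7 and 9.24 FPKM.

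In the mevalonate arm 5 of 8 genes fell: ACAT2 to 54.6% of control, HMGCS1 to 47.9%, the kinase MVK to 76.0%, the isomerase IDI1 to 65.5% and the farnesyl diphosphate synthase FDPS to 78.4%. The second kinase PMVK (114%), the decarboxylase MVD (89.8%) and the geranylgeranyl diphosphate synthase GGPS1 (76.5%) did not pass. The GGPS1 libraries spread widely, from 1.51 to 3.62 FPKM in control and from 1.23 to 3.02 FPKM with almonertinib. The IDI1 groups overlapped, because almonertinib 3 at 4.01 FPKM lay above control 2 at 3.81 FPKM.

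In the sterol arm 6 of 11 fell and 1 rose. Besides SQLE and MSMO1, the fallers were squalene synthase FDFT1 (69.8% of control), the lanosterol demethylase CYP51A1 (57.6%), the desaturase SC5D (63.6%) and DHCR7 (58.2%). LSS, the lanosterol synthase that acts on the product of SQLE, rose instead. It was 38.6, 51.6 and 44.8 FPKM in control and 72.4, 74.8 and 56.0 FPKM with almonertinib (0.58 ± 0.12, adjusted p = 0.0029). All 3 treated libraries were above all 3 controls, at 151% of the control mean. NSDHL, HSD17B7 and EBP, enzymes between the demethylation and the end of the pathway, lay at 94.9%, 89.5% and 94.2% of control and did not pass, nor did TM7SF2 at 121%.

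Among the control genes INSIG1, itself an SREBP target, fell to 66.3% of control and SREBF2, the gene of the SREBP that drives sterol synthesis, to 83.0%. INSIG2 (101%) and SCAP (102%) were close to control, with 95% intervals of -0.34 to 0.35 and -0.23 to 0.29 on the log2 scale. Of the transport genes, the sterol carrier STARD4 (53.3%), the NPC1-binding protein TMEM97 (84.2%) and the phosphatidate phosphatase LPIN1 (66.8%) fell. NPC1, which exports cholesterol from lysosomes, rose from 12.6, 13.8 and 12.8 FPKM to 17.9, 15.8 and 14.3 FPKM (0.27 ± 0.07, adjusted p = 0.012). MYLIP, which marks lipoprotein receptors for degradation, rose from 6.94, 6.61 and 6.34 FPKM to 8.39, 8.24 and 8.63 FPKM (0.30 ± 0.06, adjusted p = 0.0039). Neither gene's groups overlapped, and the esterifying enzyme SOAT1 (71.4%) and the efflux pump ABCA1 (90.4%) did not pass.

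Without control 1 and almonertinib 3 the counts were again 16 lower and 3 higher, with 26.3% of all loci called. With GC and length trends removed they were 15 and 3, with 33.6% called. In a fit of only the 6 libraries compared, 8 members were lower and none higher, with 458 of 14999 loci lower and 399 higher (5.71% called). The 8 were ACAT2, HMGCS1, FDPS, FDFT1, SQLE, DHCR7, INSIG1 and LPIN1. At an unadjusted p under 0.05 that fit had 3 members higher and 15 lower. These 8 calls held in every alternative fit, and LSS missed the threshold in that fit alone (adjusted p = 0.073). The calls of IDI1, STARD4 and TMEM97 were lost without control 1, almonertinib 1 or almonertinib 2, that of IDI1 also without control 3, and their adjusted p reached up to 0.15, 0.14 and 0.20 over the alternatives. Without control 2, 5 members were higher, with 37.4% of all loci called. Another scaling ended the calls of MVK and SREBF2 (median ratios) and NPC1 (TPM), and removal of GC and length trends that of CYP51A1.

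With EGF most of the synthesis genes rose. Of 30 members 23 were higher and 2 lower than in control, where 22% of all loci were higher and 27.3% lower. The median change was 1.24, against -0.04 over all loci. By group mean 17 members were at 2-fold or more of control, and the share of all loci at 2-fold was not computed. Summed over the 8 genes of the mevalonate arm, the level was 144 to 162 FPKM in the control libraries and 387 to 425 FPKM in the EGF libraries. Over the 11 genes of the sterol arm it was 177 to 202 FPKM and 472 to 494 FPKM.

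HMGCS1 had the largest change, to 93.4, 86.8 and 95.7 FPKM from 18.9, 17.1 and 15.9 FPKM (2.35 ± 0.09, adjusted p = 5.0e-10). ACAT2 went from 11.3, 11.7 and 12.2 FPKM to 58.7, 63.1 and 64.5 FPKM (2.31 ± 0.07, adjusted p = 9.2e-11). MSMO1 reached 75.8, 57.1 and 75.6 FPKM from 19.5, 10.7 and 12.5 FPKM (2.24 ± 0.19, adjusted p = 6.9e-07). All EGF libraries of these 3 genes lay far above all control libraries, at 532%, 529% and 488% of the control means. ACAT2 shares 26.5%, 33.9% and 9.2% of its exon bases with SOD2, SOD2-OT1 and TCP1 on the opposite strand. TCP1 rose with EGF from a mean of 22.7 to 36.7 FPKM (0.67, limma adjusted p = 2.5e-07). With almonertinib TCP1 fell (-0.20, adjusted p = 0.010). SOD2-OT1 stayed at or under 0.517 FPKM. The part of these genes in the level of ACAT2 was not tested.

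The other members of the mevalonate arm rose to between 181% of control (GGPS1, whose groups overlapped) and 398% (IDI1), with MVD at 330%, FDPS at 313% and MVK at 300%. PMVK was the exception at 116% (adjusted p = 0.055). It was also the most abundant member of the arm in control, at 68.2 ± 6.94 FPKM (SD, n = 3). After EGF it was at 79.2 ± 7.30, below HMGCS1 and FDPS, which had been at 17.3 ± 1.53 and 29.9 ± 0.845 in control.

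In the sterol arm 9 of 11 rose, to between 196% of control (SC5D) and 488% (MSMO1). SQLE reached 442%, DHCR7 368%, EBP 348%, FDFT1 313%, HSD17B7 294%, CYP51A1 271% and NSDHL 228%. LSS, at 40.2, 46.4 and 40.6 FPKM, overlapped the control libraries (-0.08, 95% interval -0.33 to 0.17). TM7SF2, a sterol reductase that acts just after CYP51A1, fell from 7.47, 9.44 and 8.64 FPKM to 4.98, 6.29 and 5.0 FPKM (-0.57 ± 0.10, adjusted p = 0.00032). These 2 enzymes were thus the exceptions of the arm, and their groups were separate for TM7SF2 only.

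TM7SF2 lies next to VPS51 on the same strand, with 16 shared exon bases, and VPS51 moved alike. VPS51 was at a mean of 54.9 FPKM in control, 69.3 with almonertinib, 36.8 with EGF, 23.2 in siNC and 23.9 in siEGFR, and TM7SF2 at 8.52, 10.3, 5.42, 2.53 and 2.25. Whether reads of one were counted for the other was not tested. The lamin B receptor LBR, which has the same reductase activity as TM7SF2, moved the opposite way with EGF and in siNC, both against control. It was 5.79, 2.64 and 3.68 FPKM in control, 1.83, 1.77 and 2.69 with almonertinib, 9.08, 6.31 and 8.39 with EGF, 12.6, 11.3 and 13.3 in siNC and 10.0, 10.7 and 11.2 in siEGFR. LBR fell with almonertinib (-0.67 ± 0.19, adjusted p = 0.021), with overlapping groups, rose with EGF (0.86 ± 0.19, adjusted p = 0.0023) and was higher in siNC than in control (1.46 ± 0.19, adjusted p = 1.9e-05). Between siNC and siEGFR the means of both LBR and TM7SF2 went down.

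INSIG1 rose from 25.0, 22.4 and 23.5 FPKM to 92.8, 81.5 and 89.3 FPKM (1.85 ± 0.06, adjusted p = 1.8e-10), and SREBF2 from a mean of 42.6 ± 2.28 to 60.3 ± 1.36 FPKM (0.49 ± 0.06). INSIG2 (131%) and SCAP (81.5%) did not pass. Among the transport genes TMEM97 (282%), STARD4 (266%), LPIN1 (176%), SOAT1 (165%) and NPC1 (149%) rose. MYLIP fell to 5.10, 4.15 and 4.89 FPKM (-0.42 ± 0.06, adjusted p = 0.00012), which put all EGF libraries under all controls. ABCA1, at 7.31, 4.90 and 5.77 FPKM against 8.92, 6.84 and 7.24, had an adjusted p of 0.053.

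Of the 25 calls with EGF 24 held in every alternative fit; the call of GGPS1 was lost in 6 of 16, among them those without control 2, control 3, EGF 1 or EGF 3 (adjusted p from 0.00097 to 0.14). Without control 1 and almonertinib 3, 24 members were higher and 3 lower, with 56.4% of all loci called. SCAP and INSIG2 joined the calls in that fit. With GC and length trends removed the counts were also 24 and 3, with 59.6% called. Without EGF 2 they were 23 and 3, with 45.9% called.

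**Figure D2:**
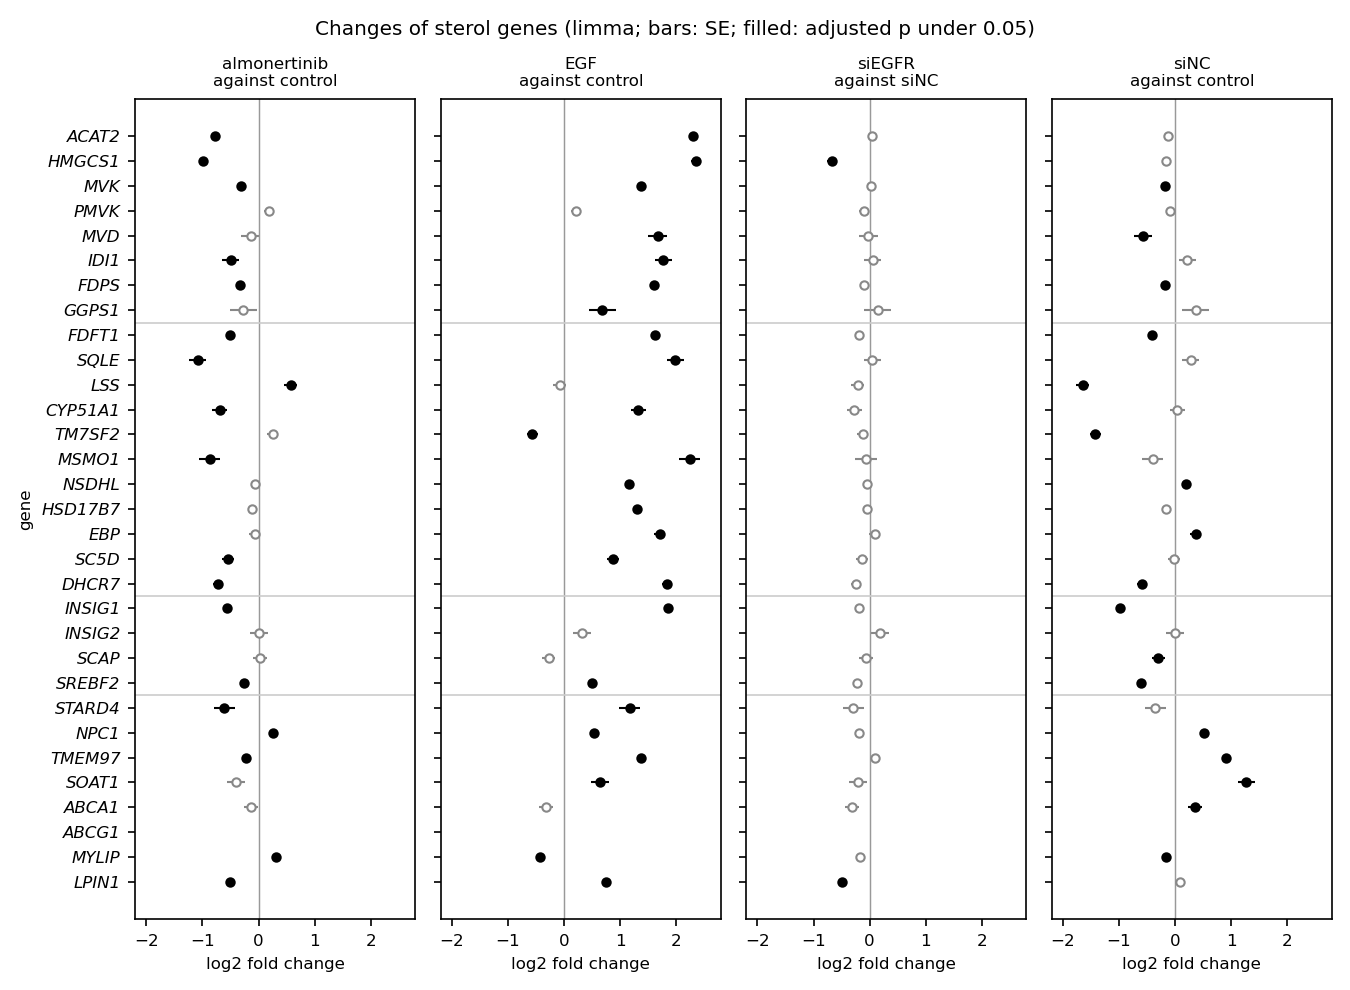
Change of each member (rows, in pathway order) in 4 comparisons (panels), as the limma log2 fold change on the x axis with its SE, filled where the adjusted p was under 0.05. The EGF panel lies to the right for all but LSS, TM7SF2, SCAP, ABCA1 and MYLIP, the siEGFR panel has 2 filled points, and ABCG1 was not tested.

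The almonertinib and EGF comparisons share the 3 control libraries, so the changes of a gene in both are not independent. An error in the shared controls moves both changes in the same direction. Side by side, 16 members were lower with almonertinib and higher with EGF, and MYLIP was higher with almonertinib and lower with EGF. NPC1 was higher in both and had its lowest group mean in control, so the shared controls bear on this pattern most. EBP, GGPS1, HSD17B7, MVD, NSDHL and SOAT1 were higher with EGF and did not pass with almonertinib, and for EBP the change was 1.71 ± 0.10 against -0.07 ± 0.10. By group mean 24 of 31 members were highest in EGF, 15 were lowest with almonertinib and 12 were lowest in siEGFR. Shares over all loci were not computed for these orders or for the joint calls above, so the counts cannot be called particular to the set.

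After knockdown of EGFR few members passed in the fit of all 15 libraries, and more passed in a fit of the siRNA libraries alone (below). Of 30 members 2 fell and none rose against siNC, where 3.19% of all tested loci fell and 2.27% rose. At an unadjusted p under 0.05 limma gave 9 members lower and 0 higher, and the share of all loci at that threshold was not computed. By adjusted p, limma-voom on the recovered reads also called 2 lower and 0 higher, with 5.73% of all loci called. HMGCS1 was 15.6, 15.3 and 15.3 FPKM in siNC and 9.43, 9.12 and 9.51 FPKM in siEGFR (-0.66 ± 0.09, adjusted p = 0.00051). LPIN1 was 9.47, 9.25 and 9.25 FPKM in siNC and 6.47, 6.16 and 6.31 FPKM in siEGFR (-0.50 ± 0.06, adjusted p = 0.00048). Both genes were well separated, at 60.7% and 67.7% of siNC, and both were also lower with almonertinib and higher with EGF.

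The count of calls here rested on the spread that the 5 groups share. The median coefficient of variation of the members was 3.74% in siNC and 3.75% in siEGFR, against 9.07% to 11.4% in the other groups. In a fit of the 6 siRNA libraries alone 13 members were lower and none higher. Of 14999 loci 1463 were lower and 1617 higher in that fit (20.5% called). At an unadjusted p under 0.05 it gave 15 members lower and 1 higher, without a share of all loci. Those 13 were HMGCS1, FDFT1, LSS, CYP51A1, DHCR7, INSIG1, SREBF2, STARD4, NPC1, SOAT1, ABCA1, MYLIP and LPIN1, whose changes apart from HMGCS1 and LPIN1 lay between -0.32 and -0.17. With GC and length trends removed 9 members were lower and none higher, with 1061 of 14410 loci lower and 931 higher (13.8% called). In the 3 against 3 libraries, 16 of 30 members lay wholly under siNC and 1 (EBP) wholly above, where 17.9% of all loci lay under and 22.7% above. ABCA1 was 10.0, 9.91 and 10.1 FPKM in siNC and 7.84, 7.44 and 8.23 FPKM in siEGFR (-0.32 ± 0.13, adjusted p = 0.20). SREBF2 went from 27.7, 27.8 and 27.3 FPKM to 22.8, 23.3 and 24.0 FPKM (-0.23 ± 0.06, adjusted p = 0.053).

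Several enzymes that fell with the drug were near the siNC level after knockdown. SQLE was 7.94, 7.49 and 8.48 FPKM in siNC and 8.0, 8.19 and 8.65 FPKM in siEGFR (0.05, 95% interval -0.28 to 0.38). ACAT2 was 10.5, 11.5 and 10.2 FPKM and then 10.5, 11.2 and 11.7 FPKM (0.05, 95% interval -0.10 to 0.20). The groups of both genes overlapped. The largest increases of the comparison did not pass. INSIG2 was 4.18, 3.04 and 4.21 FPKM in siNC and 4.10, 4.62 and 4.59 FPKM in siEGFR (0.19 ± 0.16). GGPS1 was 3.64, 2.93 and 3.61 FPKM and then 3.48, 4.18 and 3.92 FPKM (0.15 ± 0.24), with overlapping groups as for INSIG2. EBP was 12.9, 12.3 and 12.1 FPKM and then 13.4, 13.1 and 13.4 FPKM (0.09 ± 0.10), and its groups were apart.

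The difference between the drug effect and the knockdown effect was tested as a contrast of both, which share no library. It was negative for 7 members and positive for 3, against 7.71% and 5.95% of all tested loci. SQLE had the most negative difference (-1.14 ± 0.22, adjusted p = 0.0044), followed by ACAT2 (-0.83 ± 0.10, adjusted p = 0.00019). ACAT2 was 5.89, 6.30 and 7.05 FPKM with almonertinib, under all control libraries. DHCR7 (-0.50), INSIG1 (-0.38), MVK (-0.32), FDFT1 (-0.32) and TMEM97 (-0.31) were also more negative with the drug. LSS (0.79 ± 0.16, adjusted p = 0.0068), MYLIP (0.48 ± 0.09, adjusted p = 0.0041) and NPC1 (0.45 ± 0.10, adjusted p = 0.0081) were more positive. In siEGFR LSS was 12.04, 11.3 and 11.3 FPKM. MYLIP was 5.82, 5.78 and 5.74 FPKM in siNC and 5.06, 4.73 and 5.27 FPKM in siEGFR. NPC1 was 16.6, 16.5 and 17.1 FPKM in siEGFR. All 3 genes were thus lower in every siEGFR library than in every siNC library, with differences that did not pass.

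HMGCS1 and LPIN1 had differences between drug and knockdown that did not pass. For HMGCS1 the difference was -0.32 (95% interval -0.58 to -0.06, adjusted p = 0.098), and for LPIN1 it was -0.01 (95% interval -0.21 to 0.19, adjusted p = 0.95). MSMO1, at 10.4, 9.85 and 10.6 FPKM in siNC and 9.33, 9.54 and 10.5 FPKM in siEGFR, had a wide interval, -1.38 to -0.23, and did not pass (adjusted p = 0.064). Dose, time and the extent of EGFR inhibition differ or are not labelled, so the 2 treatments were not matched in strength. Of 22 alternative fits, 5 ended the call of DHCR7 (adjusted p up to 0.17), and more than 10 each ended those of MVK, FDFT1 and TMEM97 (up to 0.25, 0.32 and 0.15). Leaving out control 3, almonertinib 1, almonertinib 2 or any 1 siRNA library gave 3 or 4 members more negative. In these fits 8.92% to 12.2% of all loci were called, against 13.7% in the main fit. Leaving out almonertinib 3 gave 12 (20.2% of loci called), and leaving out control 1 as well gave 10 (18.1%). With GC and length trends removed 10 were more negative and 4 more positive, with 22.0% of the loci called.

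**Figure D3:**
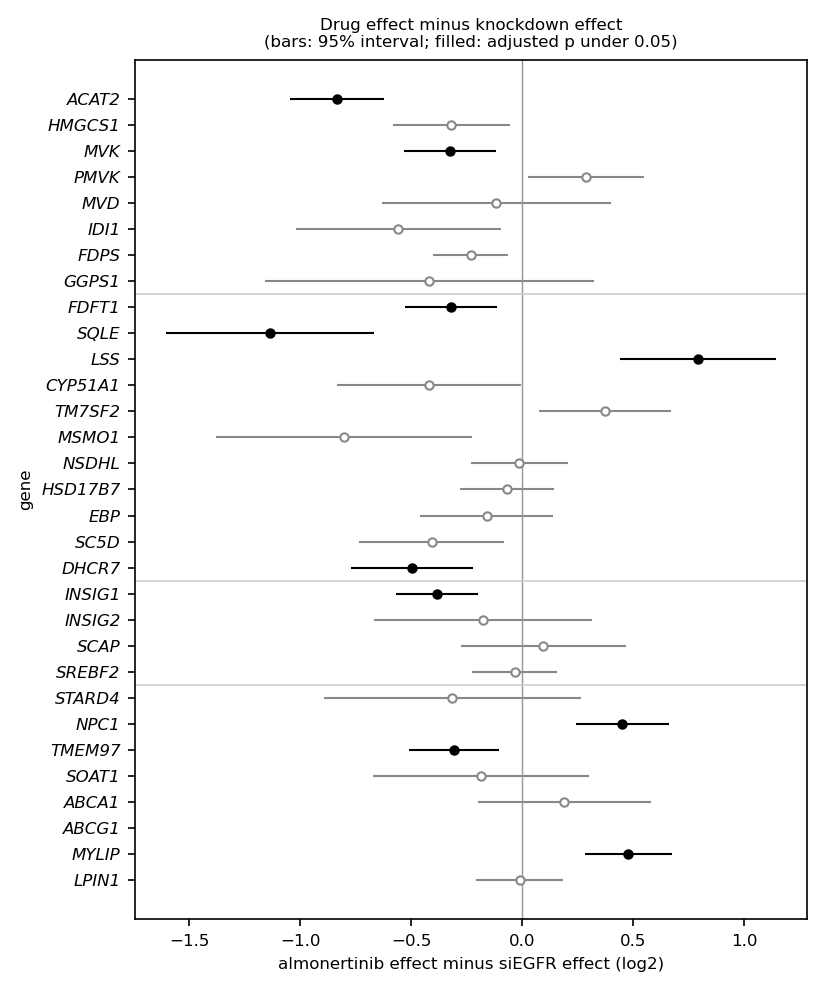
Almonertinib effect minus siEGFR effect for each member (rows), as a log2 difference on the x axis with its 95% interval, filled where the adjusted p was under 0.05. SQLE and ACAT2 lie farthest left at -1.14 and -0.83, LSS farthest right at 0.79, and LPIN1 at -0.01.

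The EGF and knockdown effects were compared in the same way. The EGF effect minus the siEGFR effect was positive for 22 members and negative for 2, TM7SF2 (-0.45 ± 0.14) and MYLIP (-0.25 ± 0.09), with 17% and 21.3% of all loci called in these directions. The MYLIP call was lost in most alternatives (adjusted p up to 0.19), and without EGF 3 no member was called negative (2 at an unadjusted p under 0.05), since the TM7SF2 call was lost too. Without control 1 and almonertinib 3 the counts were 23 and 2, with 47.3% of all loci called. With GC and length trends removed they were 24 and 2, with 50.5% called. TM7SF2 was 2.06, 2.46 and 2.23 FPKM in siEGFR. The next difference on the negative side, SCAP at -0.21, did not pass. SCAP was 19.9, 27.2 and 24.9 FPKM in control, 18.8, 21.8 and 18.1 FPKM with EGF, 19.3, 19.8 and 18.4 FPKM in siNC and 18.3, 18.5 and 18.1 FPKM in siEGFR. The largest differences were those of HMGCS1 (3.01 ± 0.12), MSMO1 (2.30 ± 0.27) and ACAT2 (2.26 ± 0.10).

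The siRNA control itself differed from the control group. Of 30 members 6 were higher and 11 lower in siNC than in control, where 34.4% of all loci were higher and 31.6% lower, so neither count stood clear of the background. Transfection, the siRNA and any difference in culture or time between these groups cannot be told apart. LSS was 13.4, 14.5 and 12.8 FPKM in siNC, 30.2% of control (-1.65 ± 0.12, adjusted p = 4.7e-08). TM7SF2 was 2.53, 2.5 and 2.56 FPKM, 29.7% of control (-1.43 ± 0.10, adjusted p = 3.6e-08). INSIG1 was 11.7, 11.6 and 11.1 FPKM, 48.6% of control (-0.98 ± 0.06, adjusted p = 1.2e-08). In all 3 genes every siNC library lay under every control, almonertinib and EGF library, and the siEGFR libraries did too.

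SREBF2 fell to 64.7% of control, DHCR7 to 64.8%, MVD to 63.8% and FDFT1 to 74.5%. SOAT1, which esterifies cholesterol for storage, was higher at 15.1, 13.6 and 14.9 FPKM against 7.12, 4.53 and 4.91 FPKM (1.27 ± 0.16, adjusted p = 1.1e-05). TMEM97 was at 14.1, 13.8 and 14.7 FPKM against 7.6, 6.86 and 6.79 FPKM (0.91 ± 0.07, adjusted p = 6.4e-08). NPC1 was at 19.0, 19.5 and 18.8 FPKM (0.51 ± 0.07, adjusted p = 1.9e-05), and ABCA1, EBP and NSDHL were at 131%, 131% and 114% of control. Within the sterol arm siNC therefore had 2 genes above and 4 below control, and HMGCS1, ACAT2 and SQLE did not pass. With GC and length trends removed 15 members were lower and 5 higher, with 72.3% of the loci called. MSMO1, SC5D, STARD4, HSD17B7, INSIG2, HMGCS1 and ACAT2 were then among the lower ones. The calls of MVK, FDPS, SCAP and NSDHL were lost in that fit. Leaving out 1 library ended the call of MVK, NSDHL, SCAP, ABCA1 or MYLIP in 4 or 5 of 6 cases each (all 5 calls without siNC 1), with adjusted p up to 0.82, 0.13, 0.21, 0.096 and 0.15 over all alternatives. Without control 1 and almonertinib 3, 9 members were higher and 10 lower, with 71.6% of all loci called.

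**Figure D4:**
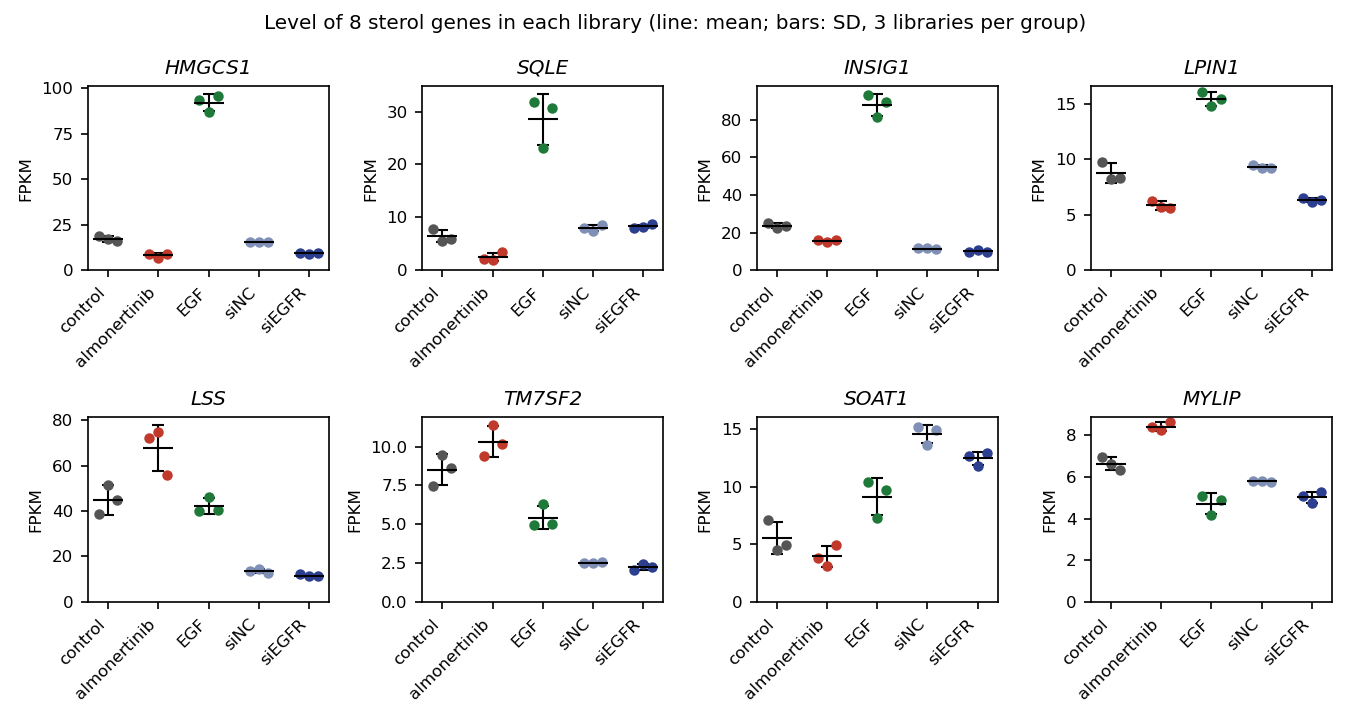
Level in FPKM (y axis, from 0) of 8 members in each library (points) of the 5 groups (x axis), with the mean as a line and the SD of 3 libraries as bars. HMGCS1, SQLE, INSIG1 and LPIN1 peak in EGF, LSS, TM7SF2 and MYLIP are highest with almonertinib, and SOAT1 is highest in siNC.

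ABCG1, an efflux pump and LXR target, was close to undetected. It had 7, 11 and 5 reads in control, 8, 13 and 14 with almonertinib, 4, 2 and 2 with EGF, 0, 0 and 3 in siNC and 0, 0 and 1 in siEGFR, and a count of 0 allows up to 3 reads. The control and almonertinib libraries held most of its reads, and no test was made. LSS, TM7SF2, SCAP and ABCG1 shared 1 order of group means, from almonertinib over control, EGF and siNC to siEGFR. The share of all loci with this order was not computed, so it cannot be called particular to these genes. Not every step passed: LSS did not with EGF, and LSS, TM7SF2 and SCAP did not after knockdown. For ABCG1 the last step rested on 3 reads in siNC 3 and 1 read in siEGFR 3. For SCAP the span was small, from 24.5 ± 4.10 to 18.3 ± 0.205 FPKM, and of the comparisons tested only siNC against control passed for it (adjusted p = 0.045).

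Genes beside the 31 were counted in 3 lists, and their calls were not followed through the alternative fits. Of 5 further LXR genes (the receptors and induced genes) 3 rose with almonertinib and none fell (limma, 0 also at an unadjusted p under 0.05), where 12.1% of all loci rose and 18% fell: SREBF1 (143% of control) and the receptor genes NR1H3 (125%) and NR1H2 (117%). LPCAT3 and SMPDL3A, the other induced genes of the list, did not pass with almonertinib. SREBF1, whose product drives fatty acid genes, was 29.8, 36.8 and 37.0 FPKM in control and 52.8, 53.1 and 42.5 FPKM with almonertinib. It fell with knockdown from 18.2, 19.3 and 17.9 FPKM to 11.7, 11.6 and 10.7 FPKM. The drug and knockdown effects on SREBF1 differed by 1.17 ± 0.14 (adjusted p = 0.00020), with both pairs of groups separate. With EGF NR1H3 fell to 58.8%, and with knockdown LPCAT3 (80.1%) fell beside SREBF1. In siNC 4 of the 5 were lower than in control, where 31.6% of all loci were: NR1H3 (40.2%), SREBF1 (53.5%), NR1H2 (84.7%) and LPCAT3 (87.3%).

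Of 12 tested genes of other sterol handling 5 fell and 3 rose with almonertinib, 4 rose and 3 fell with EGF, and 3 fell with knockdown. With EGF these shares are near those of all loci (22% higher, 27.3% lower), and with almonertinib and knockdown 18% and 3.19% of all loci fell. MBTPS1 and MBTPS2, the proteases that release SREBP, fell with almonertinib to 90.2% and 63.7% of control, and ERG28, a scaffold of the sterol demethylation enzymes, fell to 76.7%. OSBP (85.4%) and LBR (52.0%) were the other fallers, and STARD3 (120%), GRAMD1A (124%) and GRAMD1B (122%) rose. With EGF ERG28 (160%), LBR (196%), the lysosomal lipase LIPA (149%) and SCARB1 (136%) rose, and MBTPS1 (84.0%), OSBPL2 (83.6%) and GRAMD1A (73.5%) fell. After knockdown the lysosomal carrier NPC2 (69.9% of siNC) and the membrane sterol carriers GRAMD1A (83.4%) and GRAMD1B (69.6%) were lower. In siNC SCARB1 (203%) and LBR (307%) were above control. MBTPS1 (70.7%), GRAMD1A (74.2%), NPC2 (76.0%), GRAMD1B (81.8%), STARD3 (83.3%) and OSBPL2 (83.6%) were below it, and 6 of 12 stands against 31.6% of all loci.

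Among 10 tested genes that use the isoprenoids of the mevalonate arm, 1 rose and 2 fell with almonertinib, 3 rose and 1 fell with EGF, and none passed after knockdown (limma, 0 also at an unadjusted p under 0.05). These shares are near those of all loci, 12.1% higher and 18% lower with almonertinib and 22% higher with EGF. PDSS1, which builds the side chain of ubiquinone, was 1.36, 1.57 and 1.07 FPKM in control, 0.623, 0.895 and 1.01 with almonertinib and 4.13, 4.62 and 4.48 with EGF, which is 330% of control. It was also high in siNC, at 459%. NUS1 (157%), RABGGTB (158%), COQ2 (128%) and FNTB (113%) were higher there too, RABGGTA (64.6%) and DHDDS (90.1%) lower, and 34.4% of all loci were higher. NUS1 fell with the drug (75.7%) and rose with EGF (130%), RABGGTB rose with EGF (150%), and RABGGTA rose with the drug (125%) and fell with EGF (81.6%).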

How the data were processed

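Messenger RNA was enriched with oligo(dT) beads and sequenced as paired ends, per the labels' protocols. The authors deposited FPKM values for 61248 loci in 15 libraries, and HISAT2, featureCounts, DESeq2 and the build hg19 are named in the submitters' processing notes without versions. Whether counting used strand is not given in the sources used here. Symbols came from a list of gene names by Ensembl ID (60463 loci matched). Loci that reached 1 FPKM in 3 or more libraries were kept (14999). limma 3.58.1 in R 4.3.3 was run on log2(FPKM + 1) (trend, robust, 1 coefficient per group, 10 residual degrees of freedom, two-sided, Benjamini-Hochberg). Fold changes on this scale understate changes of low genes. Percentages of control or siNC are ratios of mean FPKM.

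Whole reads were recovered from the FPKM steps (100% of positive values whole within 0.01), and 1 read in 1 kb equals 0.0286 to 0.0555 FPKM. The read recovery and the limma fit were tested on simulated data. GENCODE v29 gave exon overlaps, GC content and length, and RefSeq the promoters. No coordinates of the files' build are given.

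Members and lists were chosen with earlier results of these data known. All members may be named. Values in every library are given for the 3 largest changes in each direction of each comparison and for members that moved against their arm. Genes of the other lists are named where past the threshold, and the LBR comparison with TM7SF2 was chosen after its values were seen. Alternatives were a pseudocount of 0.1, no filter, TPM or median-ratio scaling, fits of the compared groups alone, no trend, limma-voom on recovered reads, a replicate block, and fits without libraries. Removal of GC and length trends (splines of 4 degrees of freedom, 14410 loci) was added after seeing the data. Files were read and figures drawn with Python 3.11.15, pandas 2.3.3, numpy 2.4.6 and matplotlib 3.10.9. Some genes of the pathway are not reported here.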

Additional observations from a re-analysis of the deposited data

How the results depend on the processing

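No member reversed a call in any alternative, and calls held in every alternative for 24 of 25 members with EGF, 8 of 19 with almonertinib, 2 of 2 for siEGFR and 11 of 17 for siNC. For the differences they held in 6 of 10 (almonertinib minus siEGFR) and 22 of 24 (EGF minus siEGFR). Members lower for almonertinib minus siEGFR were 7, and they were 3 without the filter and 3 with median-ratio scaling. The shares of all loci called in these fits were 13.7%, 3.79% and 12.5%. Members lower for EGF minus siEGFR were 2, and they were 0 without the filter, 1 with TPM, 0 with median ratios, 1 in the fit of those groups alone and 1 with limma-voom. In that order 38.3%, 14.3%, 37.0%, 38.9%, 41.3% and 38.6% of all loci were called. Fitting only the compared groups gave 0 higher and 8 lower with almonertinib and 13 lower for siEGFR, and removing GC and length trends gave 9 lower for siEGFR. The shares of all loci called in either direction in these fits were 5.71%, 20.5% and 13.8%, with 458, 1463 and 1061 loci lower. Leaving out 1 library gave for almonertinib 3 to 5 higher and 13 to 18 lower, for EGF 22 to 24 and 2 to 3, for siEGFR 0 to 0 and 2 to 2, for siNC 4 to 8 and 8 to 11, for almonertinib minus siEGFR 3 to 4 and 3 to 12, and for EGF minus siEGFR 22 to 23 and 0 to 2. The shares of all loci called ran from 19.0% to 37.4% for almonertinib and from 41.8% to 50.4% for EGF. For siEGFR they were 2.94% to 3.50%, and for siNC 59.8% to 67.7%. For the differences they were 8.92% to 20.2% (almonertinib minus siEGFR) and 33.1% to 40.8% (EGF minus siEGFR). Without control replicate 2, 5 members were higher with almonertinib. Without almonertinib 3 and control 1 together, siNC had 9 higher and 10 lower. The cause of these differences was not tested. The replicate block gave 5 higher and 17 lower with almonertinib and 24 higher and 4 lower with EGF. It called 37.4% and 53.6% of all loci, against 30.1% and 49.3% in the main fit. The labels do not pair the numbers, and 10 of 30 same-number pairs correlated over 0.1 (r from -0.17 to 0.60). The highest were control 2 with EGF 2 (0.60), control 1 with EGF 1 (0.55) and control 2 with almonertinib 2 (0.54). Next came almonertinib 2 with EGF 2 (0.53) and almonertinib 3 with EGF 3 (0.44). Pairs with siEGFR lay between -0.08 and 0.04. The main fit treated all libraries as independent. Of all calls with almonertinib 40.2% were higher, 22.0% with TPM and 50.4% with median ratios. With EGF the share went from 44.7% to 57.7% with median ratios, for almonertinib minus siEGFR from 43.5% to 24.3% (TPM) and 56.3% (median ratios), and for EGF minus siEGFR from 44.4% to 60.4% with median ratios. TPM moved the median of all loci for almonertinib minus siEGFR from -0.07 to -0.18.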

Other observations

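Exons of 15 members overlap another gene in GENCODE v29, 7 of them a protein-coding one. Reads could be split or shared there if counting ignored strand, and for genes on the same strand whether or not it did. Some of these cases follow. GGPS1 shares 37.3% of its exon bases with TBCE on the same strand, and TBCE stayed at or under 0.155 FPKM. TMEM97 shares 11.9% with IFT20 on the opposite strand, which changed by 0.12 with EGF (adjusted p = 0.19). CYP51A1 shares 79.4% of its exon bases with a same-strand readthrough model. MVK overlaps MMAB on the opposite strand, and MMAB rose less with EGF than MVK did (0.76 against 1.37). RUSC1-AS1 opposite FDPS rose by 0.72 with EGF, from a mean of 1.91 to 3.79 FPKM, while FDPS rose by 1.61. STARD4-AS1, opposite STARD4, went the other way from STARD4 with EGF, from 2.45 to 0.915 FPKM (-0.84, adjusted p = 6.6e-05), and it was also lower in siNC than in control (-0.84, adjusted p = 3.6e-05). HSD17B7P2, a pseudogene of HSD17B7, rose with EGF from 0.629 to 1.48 FPKM, and reads of near-identical copies may be assigned to either. The processed pseudogene FDPSP1 stayed at or under 1.22 FPKM in every library.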
